A study of Mus musculus with 29 samples.

Results

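The subject is the Atoh1 locus: the kept summits within 100 kb of the Atoh1 gene, in 9 peak lists from ChIP-seq, in which chromatin is precipitated with an antibody and the DNA that comes with the protein is sequenced. A summit is the base of a peak with the most ChIP fragments, and a kept summit is one that the authors retained in their summit lists. Of 175162 kept summits in all, 23 lay within 100 kb of Atoh1 and outside its coding exon, and 8 more lay over the coding exon and were counted apart.

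Mouse embryonic stem cell (ESC) lines with a doxycycline (dox)-inducible cassette were grown as embryoid bodies (EBs), which are aggregates of differentiating ESCs, and all groups used here were collected on day 6 after 48 h of dox at 2 µg/ml. All 6 lines were made from the A2loxCre parental line, their cassettes end in the Venus reporter, and no EBs without dox were analysed here. The lines carry Atoh1 alone (iAtoh1), Pou4f3 alone (iPou4f3), Gfi1 with Atoh1 (iG+A), Gfi1 with Pou4f3 (iG+P), Pou4f3 with Atoh1 (iP+A) or all 3 factors (iGPA). Atoh1 was precipitated through a FLAG tag in the 4 lines that carry it, and Pou4f3 through a MYC tag in the 4 lines that carry it. Gfi1 has no tag and was precipitated in iGPA, with an antibody against Gfi1. There were 17 ChIP libraries (2 per group, 1 for Gfi1) and 12 input libraries. The FLAG tag marks the inserted Atoh1 protein and not the cell's own. Dissociated EBs were used whole, so cells that did and did not express the cassette were measured together, and peak lists hold no marker levels by which the cell type could be checked. The authors pooled the replicates of a group, which per the series description are different clones, before they called peaks. No value below therefore has a spread between replicates, and no test was possible. Intervals are 95% Poisson intervals of the fragments at a summit and cover counting error only.

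Atoh1 encodes a basic helix-loop-helix transcription factor that binds E-box DNA together with an E protein partner and is needed for inner ear hair cells, cerebellar granule neurons and intestinal secretory cells. It is known to maintain its own transcription through an enhancer that lies 3′ of its coding sequence and holds an E-box. Pou4f3 is a POU-homeodomain factor and Gfi1 a zinc-finger factor, and both are needed for hair cells to differentiate and survive. The locus therefore addresses whether the induced factors were found at the Atoh1 gene itself, and at which elements.

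In build mm9, Atoh1 (ENSMUSG00000073043.4) is a single-exon gene on the plus strand at chr6:64679140-64681227, with its coding sequence and stop codon at chr6:64679317-64680372. No file gives the bounds of the autoregulatory enhancer. The window from 3 to 6 kb past the stop codon, chr6:64683373-64686372, was used for it, from general knowledge of the gene and rounded outward.

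The enhancer window holds 6 E-box cores, which are the letters CAGCTG, the form CATATG and the form CAGATG, the last on either strand. Both CAGCTG cores, 4189 and 4388 bp past the stop codon, are shown with their surroundings as examples of the letters in the window. Capitals mark the core, on the plus strand of mm9.
E-box 4189 bp past the stop codon, chr6:64684544-64684583: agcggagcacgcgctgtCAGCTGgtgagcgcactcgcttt
E-box 4388 bp past the stop codon, chr6:64684743-64684782: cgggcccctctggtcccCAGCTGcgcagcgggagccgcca
The other 4 cores lie 3131, 5251, 5350 and 5374 bp past the stop codon. Such cores are common. Of 22743 genes with a coding sequence, 98.9% have at least 1 core in the same window, and the median is 5 cores. The longer AtEAM pattern, an E-box with 2 further bases on each side, has 0 matches in the Atoh1 window, and 22.9% of genes have 1 or more in theirs. Within 100 kb of Atoh1 the AtEAM pattern has 27 matches, and those nearest to the stop codon lie 9614 bp before and 10205 bp past it. The 20-base repeat unit of the study's AtEAM reporter oligo has 0 exact matches within 100 kb on either strand.

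No summit was found at the downstream enhancer. In 0 of 9 lists did a kept summit fall 3 to 6 kb past the Atoh1 stop codon. The background for this window was low too: in the Atoh1 lists, 3.19% of genes had a kept summit there in iAtoh1, 4.7% in iG+A, 3.8% for iP+A and 5.75% for iGPA. In the Pou4f3 lists the share was 4.13% in iPou4f3, 4.95% in iG+P, 2.74% for iP+A and 2.64% for iGPA, and in the Gfi1 list it was 0.752%. The mean of the 9 lists was 3.63%. A lack of a summit in this window was therefore the usual state of a gene. The count stayed at 0 for 2 to 8 kb past the stop codon, for all called peaks and for full peak intervals.

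The empty stretch was far wider than the enhancer window. Outside the coding exon, no list had a kept summit in the 68268 bp before the gene or in the 41348 bp after it, which takes in the promoter and the window. The window starts 3327 bp past the nearest summit over the coding exon and ends 36203 bp before the next summit downstream. Depth limits what this shows. Where the background was at its usual level for a list, the weakest called peaks had 17 to 21 fragments and a fold enrichment of 2.3 to 2.62 in the Atoh1 and Pou4f3 lists, and 14 fragments and 3.3 in the Gfi1 list. Fold enrichment is the ratio of ChIP fragments to background at the summit, as the authors' peak caller gives it, and each list has its own background. Weaker enrichment at the enhancer was not detectable at this depth.

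**Figure D1:**
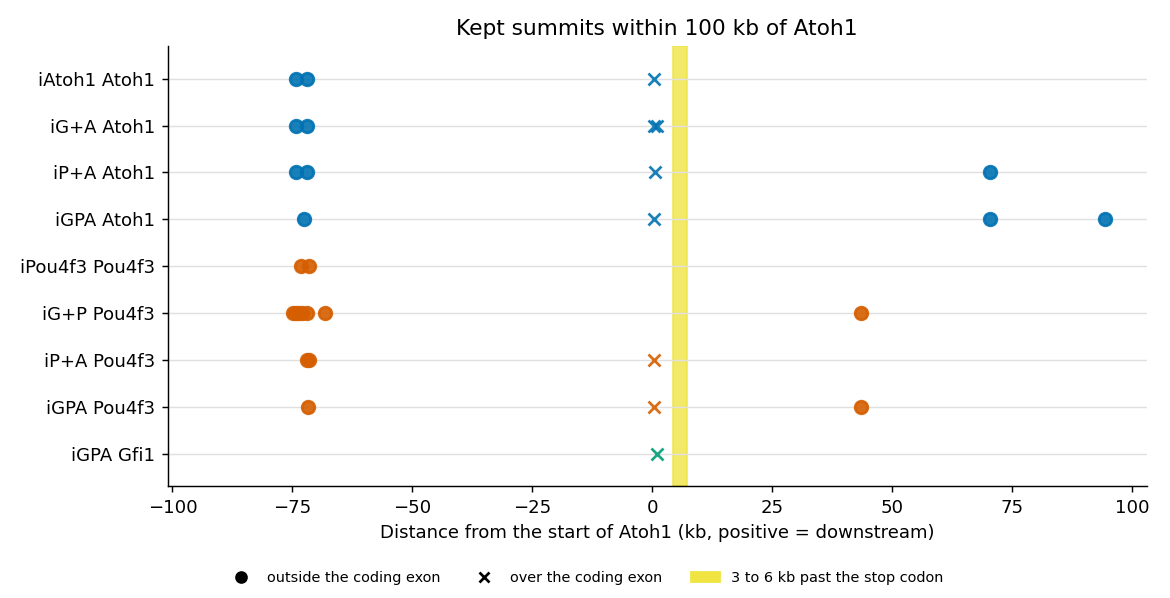
Kept summits of the 9 lists (rows) against the distance from the start of Atoh1 in kb, with blue for Atoh1, orange for Pou4f3 and green for Gfi1. Circles are the 23 summits outside the coding exon, crosses the 8 over it, and the yellow band is 3 to 6 kb past the stop codon; the band is empty in all 9 rows, and the circles lie about 70 kb upstream or more than 40 kb downstream.

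The coding exon itself carried summits in the lists from lines with inserted Atoh1. The cassettes hold the Atoh1 coding sequence, so fragments from them can align to this exon of the endogenous gene. The input libraries of these lines come from cells with the same cassettes. All 7 lists from lines with inserted Atoh1 had a summit there, including the Pou4f3 lists of iP+A and iGPA and the Gfi1 list. Of the 2 lists from lines without it (iPou4f3 and iG+P), 0 did. The share of all genes with a summit in their own coding sequence was not counted, so what is usual is not known here. In the Atoh1 lists the fold enrichment was 4.89 (3.51 to 6.63) in iAtoh1, 4.84 (3.55 to 6.46) in iP+A and 5.41 (3.95 to 7.25) in iGPA. iG+A had 2 summits, at 3.74 (2.51 to 5.38) and 3.07 (1.97 to 4.58).

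The highest value over the exon was in a Pou4f3 list. In iP+A the Pou4f3 precipitation gave 6.68 (5.1 to 8.6), from 58 fragments over a background of 7.83, and only 3.46% of that list's kept peaks had this fold or more. The Atoh1 precipitation of the same line gave 44 fragments over 8.3, and the intervals of both folds overlap. The Pou4f3 list of iGPA had 3.32 (2.15 to 4.91) and the Gfi1 list 3.44 (2.14 to 5.27).

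The exon peaks stayed within the coding sequence. All 8 peaks, 129 to 985 bp long, lay wholly inside it, and none reached the untranslated ends of the gene's exon. Their summits spread over 615 bp, from 291 to 906 bp past the start of the gene. At 6 of the 8, the background was within 1% of the list's usual level. What gave rise to the exon peaks was not tested. All Atoh1 lists come from lines with the insert, so binding of Atoh1 to the coding exon of the endogenous gene and fragments from the cassette cannot be told apart here.

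**Figure D2:**
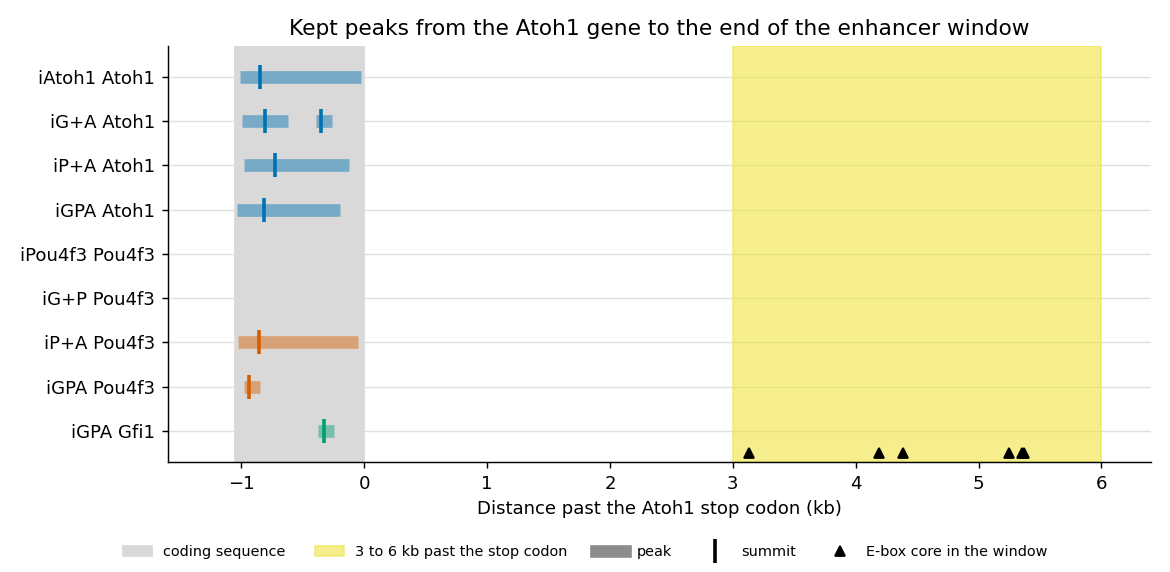
Kept peaks (bars) and summits (ticks) by list against the distance past the Atoh1 stop codon in kb, with grey for the coding sequence, yellow for 3 to 6 kb past the stop codon and triangles for the 6 E-box cores in that window. The 8 peaks of the 7 lists from lines with inserted Atoh1 lie inside the grey band, and the rows of iPou4f3 and iG+P are empty.

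Outside the exon, the 23 summits came from 8 lists: 10 from the Atoh1 lists, 13 from the Pou4f3 lists and 0 from the Gfi1 list. Among the Atoh1 lists, iAtoh1 and iG+A had 2 each and iP+A and iGPA 3 each. Among the Pou4f3 lists, iPou4f3, iP+A and iGPA had 2 each and iG+P had 7. Leaving out iG+P, the list with the most peaks, brought the Pou4f3 summits to 6.

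These counts were ordinary for a gene. With the same rule, the share of the 37273 annotated genes with at least 1 kept summit within 100 kb was 61.4% for Atoh1 in iAtoh1, 71.5% in iG+A, 69.6% for iP+A and 76.2% for iGPA. For Pou4f3 it was 79.2% in iPou4f3, 84.2% in iG+P, 69.8% for iP+A and 74.1% for iGPA, and for Gfi1 it was 30.7%. The mean of the 9 lists was 68.5%. As many summits as at Atoh1, or more, were found at 34.8% to 53.0% of genes in the Atoh1 lists. In the Pou4f3 lists the range was 46.4% to 62.1% in iPou4f3, iP+A and iGPA, and 15.5% in iG+P.

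**Figure D3:**
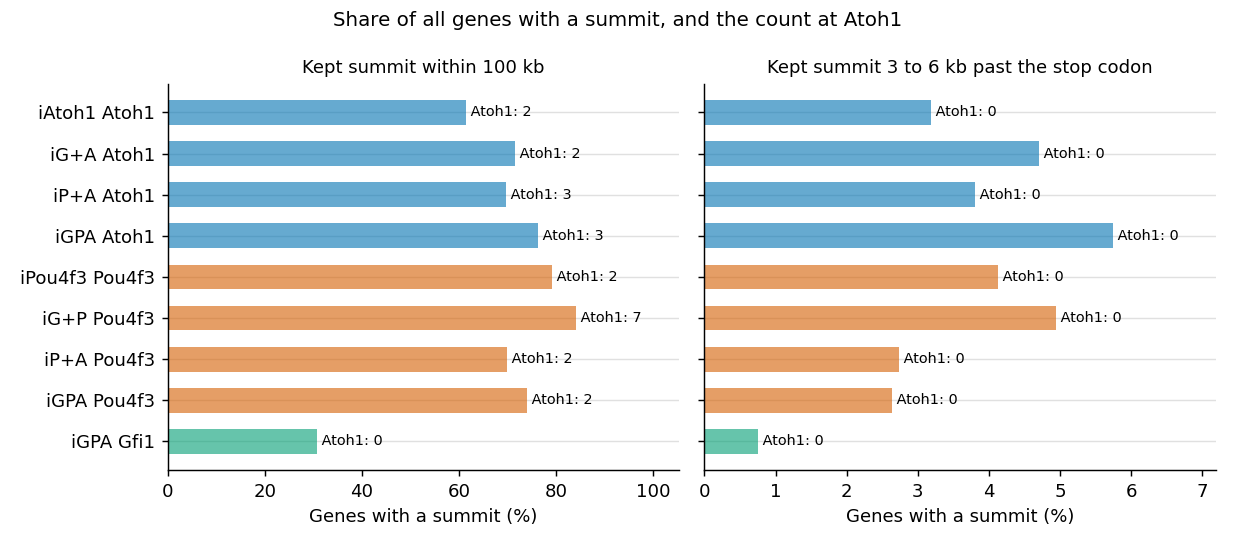
Share of all genes (%) with a kept summit within 100 kb (left, 37273 genes) or 3 to 6 kb past the stop codon (right, 22743 genes with a coding sequence), by list, with the number of such summits at Atoh1 printed beside each bar. Atoh1 has 2 to 7 summits in the 8 lists with bars of 61.4% or more on the left, and 0 in every list on the right.

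Enrichment near Atoh1 was weak. The fold of the 23 peaks ran from 2.69 to 4.04, from 21 to 33 fragments, and 4 of the 23 lay above the median of all kept peaks in their own list. Those medians were 2.96 to 4.08 in the lists concerned. At 22 of the 23, the background was within 1% of the list's usual level.

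**Figure D4:**
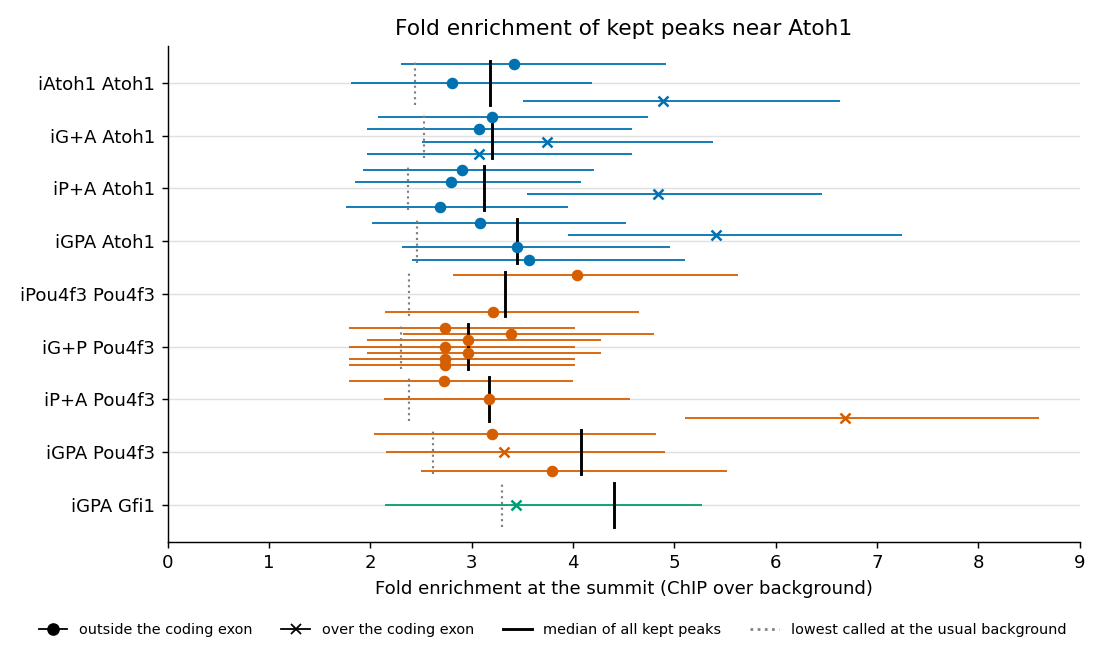
Fold enrichment of the kept peaks near Atoh1 by list, with 95% Poisson intervals of the fragments; circles lie outside the coding exon and crosses over it, black lines are the median of all kept peaks of the list and dotted lines the lowest fold called at the usual background. The circles sit between 2.69 and 4.04, and the cross of the iP+A Pou4f3 list is the highest at 6.68.

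When windows of 300 bp around the summits were joined where they met, the 23 summits formed 11 sites, of which 6 were found in 2 or more lists. The sequence around the middle of both such sites downstream of the gene is shown first, because each belongs to 1 antibody. Each is 151 bases of the plus strand of mm9, with capitals for E-box cores and for the Pou4f pattern ATAATTAAT with at most 1 mismatch, on either strand.
Site 43.4 kb downstream, chr6:64722513-64722663: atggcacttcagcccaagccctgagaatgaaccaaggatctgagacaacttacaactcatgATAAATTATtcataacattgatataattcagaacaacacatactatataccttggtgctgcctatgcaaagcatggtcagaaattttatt
Site 70.4 kb downstream, chr6:64749467-64749617: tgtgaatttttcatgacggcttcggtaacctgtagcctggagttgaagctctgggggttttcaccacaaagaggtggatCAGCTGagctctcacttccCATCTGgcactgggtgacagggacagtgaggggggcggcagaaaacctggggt
Within the letters shown, the Pou4f3 site has 1 Pou4f match and the Atoh1 site has 2 of its 3 E-box cores.

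Most of the summits, 18 of 23, lay upstream in a stretch of 6577 bp, 68.3 to 74.8 kb before the start of Atoh1. The start of Atoh1 was the nearest annotated transcription start for each of their 8 sites. However, all 8 sites lie within the body of an annotated gene other than Atoh1, so they are not intergenic. All 8 lists with a summit near Atoh1 had 1 or more here. The lines without inserted Atoh1 gave 8 of the 18, so Pou4f3 was found there without the Atoh1 cassette. Of these 8, 6 came from iG+P, the list with the most peaks. Their folds were 2.74 to 3.39, where the lowest called at that list's usual background was 2.3.

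The site 71.9 kb upstream was found in 6 lists, which is the most of any site near the gene. Its Atoh1 summits had a fold of 2.81 (1.81 to 4.19) in iAtoh1, 3.07 (1.97 to 4.58) in iG+A and 2.8 (1.85 to 4.08) in iP+A. Its Pou4f3 summits had 2.96 (1.97 to 4.28) in iG+P, 2.73 (1.79 to 4.0) for iP+A and 3.2 (2.04 to 4.82) for iGPA. The 6 summits lay within 56 bp of each other and their intervals overlap. The Atoh1 list of iGPA and the Pou4f3 list of iPou4f3 had no summit at it. However, a 686 bp peak of iPou4f3, whose summit is in the site 71.5 kb upstream, reached into it.

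The site 74.3 kb upstream was found for Atoh1 in iAtoh1, with a fold of 3.42 (2.3 to 4.92), in iG+A, with 3.2 (2.08 to 4.74), and also in iP+A, with 2.9 (1.93 to 4.21). For Pou4f3 it was found in iG+P alone, with 3.39 (2.32 to 4.8). No list of iGPA had it.

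The other sites in this stretch that were found in more than 1 list were Pou4f3 sites. At 73.1 kb upstream, iPou4f3 had the highest fold outside the exon, 4.04 (2.82 to 5.63), from 33 fragments, and iG+P had 2.74 (1.79 to 4.02) at a summit 137 bp away. At 71.5 kb upstream, iPou4f3 had 3.21 (2.14 to 4.65) and iP+A had 3.17 (2.13 to 4.56), with summits 39 bp apart. The remaining 4 sites of the stretch were in 1 list each, 3 of them in iG+P (folds 2.74 to 2.96) and 1 in the Atoh1 list of iGPA (3.08), which had no other summit there.

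**Figure D5:**
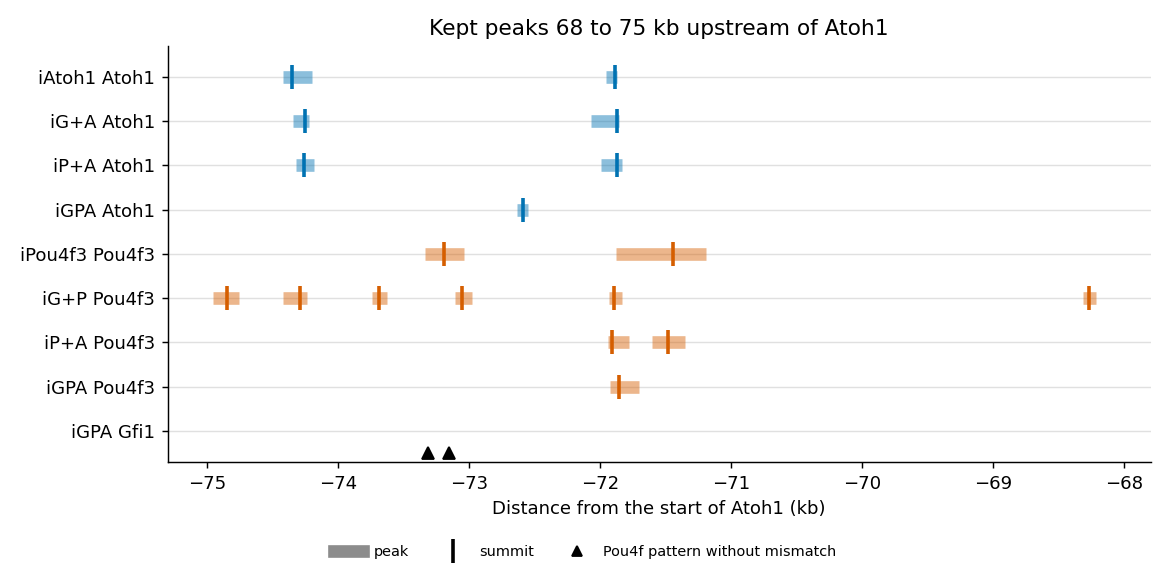
Kept peaks (bars) and summits (ticks) by list in the upstream stretch, against the distance from the start of Atoh1 in kb, with triangles for exact matches to the Pou4f pattern. Summits of 6 lists line up at 71.9 kb upstream and of 4 lists at 74.3 kb, and both triangles lie at the Pou4f3 peaks near 73.1 kb.

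Downstream of the gene there were 5 summits at 3 sites, all intergenic, and each site belonged to 1 antibody. At 43.4 kb downstream, Pou4f3 was found in iGPA, with a fold of 3.79 (2.5 to 5.52), and in iG+P, with 2.74 (1.79 to 4.02), at summits 27 bp apart. Both lines carry Gfi1 with Pou4f3, and the Pou4f3 lists of the lines without Gfi1, iPou4f3 and iP+A, had no summit there. The Gfi1 list had none either.

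At 70.4 kb downstream, Atoh1 was found in iGPA, with a fold of 3.45 (2.31 to 4.96), and in iP+A, with 2.69 (1.76 to 3.95), at summits 35 bp apart. Both lines carry Pou4f3 with Atoh1, and the Atoh1 lists of iAtoh1 and iG+A had no summit there. No Pou4f3 list had one. At 94.3 kb downstream, the Atoh1 list of iGPA alone had a summit, with 3.57 (2.41 to 5.1). The lowest folds called at the usual background were 2.37 to 2.53 in the Atoh1 lists and 2.3 to 2.62 in the Pou4f3 lists. With folds this close to them, a site that is in 1 list and not in another was not shown to differ between the lines. This holds for the Pou4f3 site 43.4 kb downstream too.

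Patterns were searched in the 250 bp around each summit, on both strands. The AtEAM pattern was found at 0 of the 11 sites. It is present at 15.0% to 18.8% of all kept summits in the Atoh1 lists. These are matches to a fixed pattern without a mismatch. The paper's own motif search found AtEAM motifs in a larger share of each of its Atoh1 peak groups from iAtoh1 and iGPA. The shares here are therefore not comparable with the paper's. The E-box core was found at 2 sites. They were the Atoh1 site 70.4 kb downstream, with 3 cores, of which 1 lies 24 bp from the iGPA summit and 1 lies 8 bp from the iP+A summit, and 1 upstream site of iG+P.

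None of the 7 upstream summits of the Atoh1 lists had an E-box core within this window. Among all kept summits of the Atoh1 lists the share with a core was 62.9% in iAtoh1, 65.3% in iG+A, 66.6% for iP+A and 75.2% for iGPA. The iGPA summit 94.3 kb downstream also had none, and its nearest AtEAM match lay 406 bp away.

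The Pou4f pattern with at most 1 mismatch was found at 3 sites, all of them Pou4f3 sites. They covered 5 of the 13 Pou4f3 summits, next to 40.0% to 54.5% of all kept summits in the Pou4f3 lists. Exact matches were found at 1 site, 73.1 kb upstream, where one lies 46 bp and another 117 bp from the iPou4f3 summit. Of the 4 exact matches within 100 kb of Atoh1, these are the pair nearest to a summit, and a further one lies 345 bp from the site 43.4 kb downstream. The Gfi1 pattern, AATCACAGC or AATCACTGC, was found at 0 sites, next to 7.01% of the summits of the Gfi1 precipitation and 0.343% to 0.66% of those of each other list.

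The genes of the other induced factors were compared by the same rule. Within 100 kb of Pou4f3, outside its coding sequence, there were 51 summits, 40 in the Pou4f3 lists and 11 in the Atoh1 lists. Its Pou4f3 counts were 10 in iPou4f3, 12 in iG+P, 8 for iP+A and 10 for iGPA. The 95th percentile over all genes was 8, 10, 6 and 6. Its Atoh1 counts, 1 to 4, lay below the 95th percentiles of 7 to 13. Within 100 kb of Gfi1 there were 16 outside its exons, 12 in the Pou4f3 lists and 4 in the Atoh1 lists. Each Pou4f3 list had 3 of them, where the median gene had 1 to 3. The Atoh1 lists had 0 to 2, with medians of 1 to 2. The Gfi1 list had 0 at both, as at Atoh1. Summits over the coding sequence of Pou4f3 were found in 6 of the 7 lists from lines with its insert and in both lists from lines without it. Unlike at Atoh1, such summits did not separate lines with the insert from lines without it. Over the exons of Gfi1, which the annotation gives no coding sequence, they were found in 5 of 5 lists with the insert and in 3 of the 4 without it. The Gfi1 count takes in untranslated parts of its exons, so it is not of the same kind as the other two. For none of the 3 genes was the share over all genes counted.

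Of the protein-coding genes on other chromosomes, those whose counts over the 9 lists were most like Atoh1 were Dlgap5, whose counts differed from it by 2 summits in all, Rnf11 and Gm17674, which differed by 3, and Pigz and Vps37a, which differed by 4. Dlgap5 encodes a mitotic spindle protein and Vps37a a subunit of an endosomal sorting complex. Dlgap5 was picked by these counts, so its 7 summits in iG+P and 0 in the Gfi1 list follow largely from that choice.

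The genes known to act on Atoh1 transcription or with its protein were counted by the same rule. Of 18 such genes, the number with a kept summit within 100 kb in the Atoh1 lists was 17 in iAtoh1, where 61.4% of all genes had one, and 15 in iG+A (71.5%). It was 16 for iP+A (69.6%) and 18 for iGPA (76.2%). In the Pou4f3 lists it was 16 in iPou4f3 (79.2%), 18 in iG+P (84.2%), 18 for iP+A (69.8%) and 16 for iGPA (74.1%). In the Gfi1 list it was 11 (30.7%). Assignment was by distance alone.

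The highest fold of each of these genes over the lists ran from 3.79 near Hey2 to 25.6 near Id1, and the 6 genes with the highest are named. Among the Atoh1 lists, a fold of 25.6 was found in iGPA within 100 kb of Id1, which encodes an inhibitor that sequesters E proteins, 68.2 kb past its start. The same list had 19.4 near Notch1, the receptor whose signalling restrains Atoh1, 29.7 kb past its start, and 13.8 near Hes1, a repressor induced by Notch, 55.3 kb before its start. Near Hey1, another repressor of that family, iP+A had 18.8, 64.5 kb before its start.

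For Pou4f3, the iGPA list had 22.7 near Eya1, a co-activator of Atoh1 transcription, 38.5 kb before its start. It had 20.8 near Neurog1, a proneural factor that restrains Atoh1, 152 bp before its start. The highest fold outside the coding exon at Atoh1 itself was 4.04. The genes named above were picked for a high fold. Among the other listed regulators the highest fold ran from 3.79 near Hey2 to 12.8 near Id3. The highest fold was not compared over all genes.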

How the data were processed

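Peak lists from 17 ChIP and 12 input libraries were used, with groups from the sample titles. The study's methods state that the authors trimmed the reads with Trimmomatic, aligned them to mm9 with Bowtie2, dropped duplicate, poorly mapped and blacklisted reads, and called peaks with MACS2 on merged replicates against merged inputs. The deposited fold enrichment is a ratio of ChIP to background, and each peak also has a deposited −log10 p and −log10 q at its summit. The lowest −log10 q was 1.3 to 1.32. The filter that left 14.1% to 35.5% of called peaks out of the summit lists is not given in the sources used here.

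Fragments and background were recovered as the whole number that gave both fold and −log10 p (tolerance 0.001), for 98.54% to 99.87% of peaks. The usual background was 3.55 fragments for Gfi1 and 5.87 to 8.3 otherwise. Total read depth was not used here. Distances, sites and patterns were computed with Python 3.11.15 and pysam 0.24.0 on NCBIM37, the same assembly as mm9, with GENCODE annotation. The code was tested on simulated data. The named genes were those most like Atoh1 by counts, the other induced factors and 18 listed regulators (values for the 6 with the highest fold). Other items that the rule names are not reported here. Sites in 2 or more lists were described singly. Members and lists were chosen with earlier results of these data known.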

Additional observations from a re-analysis of the deposited data

Results flagged for a closer look

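Among the called peaks that the authors did not keep, 1 lay within 100 kb of Atoh1, outside its coding exon. It was called for Atoh1 in iGPA against the input, 69.6 kb upstream, with a fold of 2.95 (1.92 to 4.37) from 23 fragments. It was singled out because the report's comparisons use kept peaks alone. In that list, 80.4% of kept peaks had this fold or more. Why it was not kept was not tested. No group holds enough values for a search for outlying samples, since every list is 1 pool of replicates or, for Gfi1, 1 library.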

How the results depend on the processing

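The count of 0 lists with a summit at the downstream enhancer was the same under its 4 alternatives. Of these, a −log10 p of at least 10 only removes summits, so it could not change a count of 0. The Gfi1 pattern was also found at 0 sites within 100 bp around the summit. That search lies inside the 250 bp already searched, so its outcome was fixed in advance. The 23 summits became 2 within 50 kb, 1 at a −log10 p of at least 10 and 15 with lists of equal length. For the Atoh1 lists these were 0, 0 and 8, and for the Pou4f3 lists 2, 1 and 7. Without the iG+P list, an alternative chosen after seeing the data, the Pou4f3 lists had 6 and all lists 16. The 11 sites became 5 with 1000 bp windows and 1 within 50 kb or at the higher −log10 p, and the 6 sites in 2 or more lists became 3 with 1000 bp windows. Lists with a coding exon summit fell from 7 to 4 at a −log10 p of at least 10. The mean share of genes with a summit within 100 kb was 73.3% over protein-coding genes, 71.4% with all called peaks and 66.2% for 100 kb around gene starts, the last chosen after seeing the data. The mean share 3 to 6 kb past the stop codon was 4.42% with all called peaks. With the 6-letter core in place of AtEAM, 2 sites matched, and without a mismatch the Pou4f pattern matched 1. No replicate could be left out, because the lists were called on pooled replicates or, for Gfi1, on 1 library. No paired analysis was possible because the result comes from no test.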
